A study of Homo sapiens with 4 samples.

Results

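Human miRNAs are numbered in the order in which they were reported, so that names from miR-1000 upward belong to miRNAs annotated late, most of them from deep sequencing. Of the 967 such names in the count table of HCT116 cells, 134 had at least 200 reads over all isoforms and all 4 libraries, and these 134 names are described here. They were chosen by number and by read total, so their levels are given as a description and without a test. The table lists 1644 names in all. They are set beside 344 lower-numbered names (numbers below 1000, and let-7) that passed the same minimum and that no plasmid encodes. The shares of reads at the most frequent 5p-end and 3p-end, used below as measures of processing, played no part in the choice of the names. The reads from both arms, also used below, did in part, because a name with an arm suffix was chosen by the reads of that arm. In 15 hairpins both arms passed the minimum.

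HCT116 is an established colorectal carcinoma cell line. Its cells received 1 of 4 plasmid mixtures, and 1 small RNA library was sequenced for each. The empty vector cells received pcDNA3 alone. The wild-type cells received plasmids of pri-mir-30a, pri-mir-142, pri-mir-30d, pri-mir-576, pri-mir-885, pri-mir-128-1, pri-mir-342 and pri-mir-200b together with pri-mir-16-1. The mutant 1 cells received a variant of each of these 8 with pri-mir-16-1, and the mutant 2 cells a variant of pri-mir-342 with mismatches in the middle of its upper stem, with pri-mir-16-1 and empty vector. The libraries were matched to the mixtures in the order in which the study lists them. No plasmid sequence encodes any of the 134 miRNAs. With 1 library per condition, no difference between libraries has a replicate, and the intervals given cover counting error only. Where 4 values are given for a miRNA without naming libraries, they stand in the order empty vector, wild-type, mutant 1, mutant 2. The libraries held between 14544516 and 19834361 miRNA reads.

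A miRNA starts as a hairpin in a longer transcript. Microprocessor, the complex of the nuclease DROSHA and its partner DGCR8, cuts the base of the stem and releases the pre-miRNA, whose loop DICER then removes, and a strand of the remaining duplex is loaded into an Argonaute protein. The 5p-end of the loaded strand sets its seed, bases 2 to 8, through which it pairs with target mRNAs. Hairpins that are cut at a fixed place leave reads from both arms with a sharp 5p-end, while fragments of other RNAs tend to begin at scattered positions. Mirtrons are hairpins that skip DROSHA, because splicing of a short intron makes their ends.

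The mature sequences of the most read names are shown first, because they carry most of the reads described below. Each is the RefSeq sequence (GRCh38.p14) from 5p to 3p, with the seed in capitals.
miR-1307-5p: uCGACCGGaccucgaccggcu
miR-7974: aGGCUGUGaugcucuccugagccc
miR-1307-3p: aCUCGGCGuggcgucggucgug
miR-3184-5p: uGAGGGGCcucagaccgagcuuuu
miR-3184-3p: aAAGUCUCgcucucugccccuca
miR-1180-3p: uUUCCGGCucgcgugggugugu
miR-3200-3p: cACCUUGCgcuacucaggucug
miR-7706: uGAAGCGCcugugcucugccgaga
miR-1910-5p: cCAGUCCUgugccugccgccu
miR-3615: uCUCUCGGcuccucgcggcuc
miR-2467-5p: uGAGGCUCuguuagccuuggcuc
miR-1296-5p ranked ninth by reads. Seeds could be compared among 119 of the 134 names, and none of those shown is shared with another of the 119. The 117 seeds of these names include 2 that are shared, CAGGCUC by miR-3155a and miR-3155b and GUGAGGU by miR-9986 and miR-1294.

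Before the levels, the strand of the reads has to be described. Some hairpins lie on opposite strands of the same place, and names on these strands held reads of the same intervals. Over the whole table, 25 pairs of names with 1 place each covered 279 read intervals in common, and the counts of the 4 libraries were identical in 279 of them. Among the 134 names, 8 (5.97%) had at least 50% of their reads at intervals that were listed a second time under an opposite-strand name, and these 8 held 18.8% of the reads of the 134. The 20 lower-numbered names of this kind held 0.690% of theirs. All 63113 reads of miR-3184-3p stand again under miR-423-5p, and 69415 of the 70935 reads of miR-3184-5p stand again under miR-423-3p. The other names are miR-3065-3p and miR-3065-5p (with miR-338-5p and miR-338-3p), miR-3074-3p (with miR-24-1-5p), miR-3529-3p (with miR-7-5p), and miR-6715a-3p and miR-6715b-5p, which mirror each other. miR-7-5p has several places in the genome, so the pair with miR-3529-3p was not among the 25. All 1780 reads of miR-3529-3p lay at intervals listed under miR-7-5p too, but the counts were equal for only 50 of them. Which strand such reads came from cannot be told from the counts. Read as miR-3184-3p, these reads had 58.0% of their 5p-ends and 99.5% of their 3p-ends at the most frequent place, and on the opposite strand the sharp end is the 5p-end of miR-423-5p. The share of reads, the median 5p-end share, the count of annotated starts and the count of hairpins with both arms read are given below with and without these names. The values by class of reads, by arm and by fold include them.

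The miRNAs numbered 1000 and above took a small share of the miRNA reads. From the empty vector to the mutant 2 library it was 1.30% (189037 reads), 1.06% (184333), 0.828% (164186) and 1.21% (207233), lowest in mutant 1. A single untransfected miRNA moved these totals. miR-182-5p, a miRNA that no plasmid sequence encodes, had 622484, 2558700, 4349870 and 678754 reads, which is 4.45%, 17.3%, 23.7% and 4.29% of all untransfected miRNA reads. Of the untransfected reads other than miR-182-5p, the 134 names took 1.41%, 1.51%, 1.17% and 1.37%. Levels and ratios scaled to untransfected reads are therefore smaller in the wild-type and mutant 1 libraries than without this miRNA. Without the 8 opposite-strand names the shares were 1.06%, 0.861%, 0.668% and 0.980%. The median name had 9.53, 8.72, 7.75 and 10.3 reads per 1000000 reads of untransfected miRNAs (RPM), below the 50.7, 47.2, 40.5 and 51.9 of the lower-numbered names. All 134 names had reads in each of the 4 libraries. The other 833 late-numbered names held 25573 reads together, with a median of 13 reads, and 78 of them had a single read over all libraries. Just inside the minimum lay miR-3684 (214 reads), miR-5001-5p (207) and miR-1306-3p (204), and just outside it miR-3651 (198), miR-4523 (197) and miR-6510-3p (196).

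A few names held most of these reads. The 5 most read names took between 74.2% and 77% of the reads of the 134 in each library, and 2 of the 5 are the opposite-strand arms of miR-3184. miR-1307-5p, from a hairpin in an untranslated exon of ATP5MK, a small subunit of the mitochondrial ATP synthase (chr10:103394341-103394361, minus strand), had 4792, 4592, 2321 and 4106 RPM. Its level in the mutant 1 library was thus the lowest of the 4. The other arm, miR-1307-3p, had 1515, 1401, 956 and 1534 RPM in the same order. miR-7974, in an intron of the zinc finger gene ZNF653, had 1589, 1334, 1722 and 1843 RPM and did not share the low level of the mutant 1 library. miR-1180-3p, from B9D1, a gene of the ciliary transition zone, had 456, 324, 206 and 385. miR-3200-3p, within OSBP2, an oxysterol-binding protein gene, had 215, 238, 237 and 277, and miR-7706, within AKAP13, 244, 186, 184 and 241. In the empty vector library miR-1910-5p had 176 RPM, miR-1296-5p 138, miR-3615 118 and miR-2467-5p 101.

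**Figure D1:**
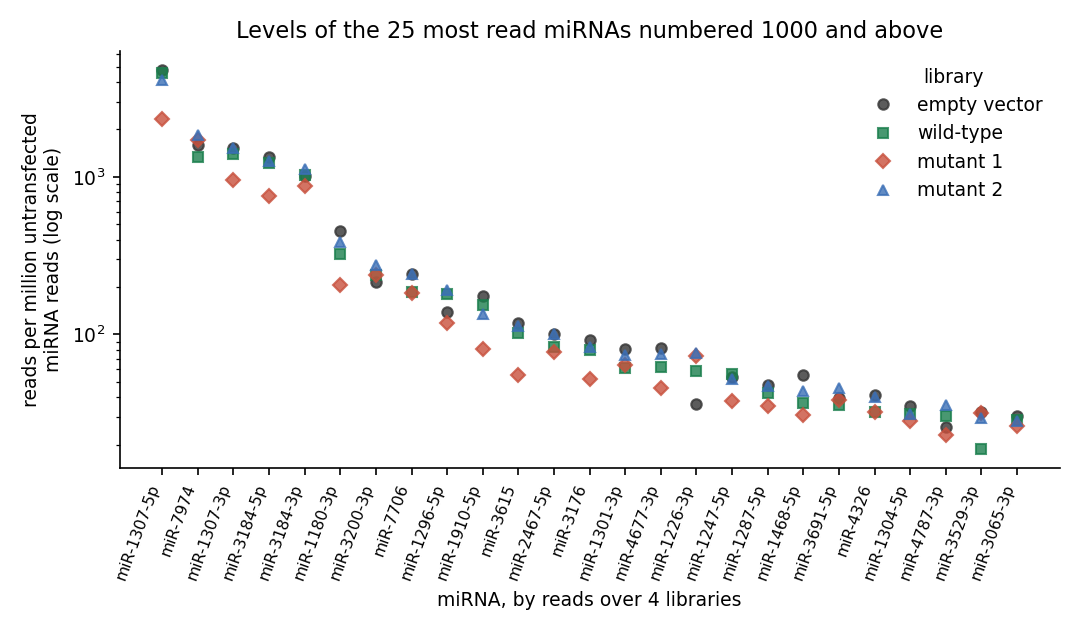
RPM (log scale) of the 25 most read miRNAs numbered 1000 and above, ordered by their reads over the 4 libraries. Each symbol is 1 library. miR-1307-5p lies between 4106 and 4792 in 3 libraries and at 2321 in the mutant 1 library (diamonds), and miR-1226-3p is lowest in the empty vector library (circles) at 36.0.

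Among the reads counted, most of these miRNAs had a sharp 5p-end. The counts hold only ends at most 5 nt from the annotated ones, so reads that began farther off do not enter the shares. The share of a name's reads that began at its most frequent 5p-end had a median of 94.1% over the 134 names, with quartiles of 71.2% and 98.7%, and of 97.0% over the 344 lower-numbered names. It reached at least 90% for 80 of 134 names (59.7%) and for 236 of 344 lower-numbered names (68.6%). It was under 50% for 11 names (8.21%) and for 9 lower-numbered names (2.62%). Without the opposite-strand names the median was 95.0% over 126 names, of which 78 reached 90%. Names are not replicates, and no test was made of these differences.

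The 5p-end share moved with the number of reads, and the late-numbered names have fewer. With 200 to under 1000 reads, the median was 91.3% over 93 late-numbered names and just above 90% over 96 lower-numbered names, and 49 of the former and 48 of the latter reached 90%. With 1000 to under 10000 reads, the medians were 98.8% (33 names) and 95.9% (127 names). With 10000 reads and over, the medians were 98.5% (8 names) and 98.5% (121 names). Within each class of read number the late-numbered names were therefore at or above the lower-numbered ones in the median. The names that reached 90% did not follow this in every class. They were 26 of 33 against 83 of 127 from 1000 to under 10000 reads, but 5 of 8 against 105 of 121 with 10000 reads and over. The share under 50% was still more frequent among the late-numbered names in the 2 lower classes, though on few names. It was found for 8 of 93 against 5 of 96 (8.60% against 5.21%) and for 3 of 33 against 3 of 127 (9.09% against 2.36%).

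Individual names show how sharp the end can be. Every one of the 1105 reads of miR-1224-5p began at the annotated base, and so did all reads of miR-7976 and miR-3613-5p. The share was 99.9% for miR-3187-3p (95% Wilson interval 99.4 to 99.98) and 99.8% for miR-1287-5p (99.6 to 99.9), 1 of 3 names inside a coding exon. Among the most read names, it was 99.8% for miR-1307-5p, 99.0% for miR-7974, 99.8% for miR-1180-3p, 98.0% for miR-3200-3p, 99.1% for miR-7706, miR-1296-5p and, at 99.2%, much the same for miR-1910-5p. It was 99.0% for miR-3615 and 97.2% for miR-2467-5p. miR-1307-3p was less sharp, like the opposite-strand names miR-3184-5p (63.0%) and miR-3184-3p (58.0%), with 60.6% of reads (60.3 to 60.9) at the annotated base and 39.2% at the next base. By library the share was 58.2%, 59.8%, 63.1% and 61.5%. The 3p arm of this hairpin thus had the less sharp 5p-end in every library.

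The preferred start was stable between libraries. It was the same base in all 4 libraries for 128 of 134 names, and the median range of the share over the 4 libraries was 5.02 percentage points, against 1.61 for the lower-numbered names. The range was 7.26 points for the 93 names under 1000 reads (lower-numbered 5.15) and 1.49 points for names with 1000 to under 10000 reads (lower-numbered 2.03). By arm, the median share was 96.4% for the 47 names of a 5p arm, 88.0% for the 52 names of a 3p arm and 97.1% for the 35 names without an arm suffix. The lower-numbered names had 98.3% and 95.4% for the 5p and 3p arms and 94.0% without a suffix.

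**Figure D2:**
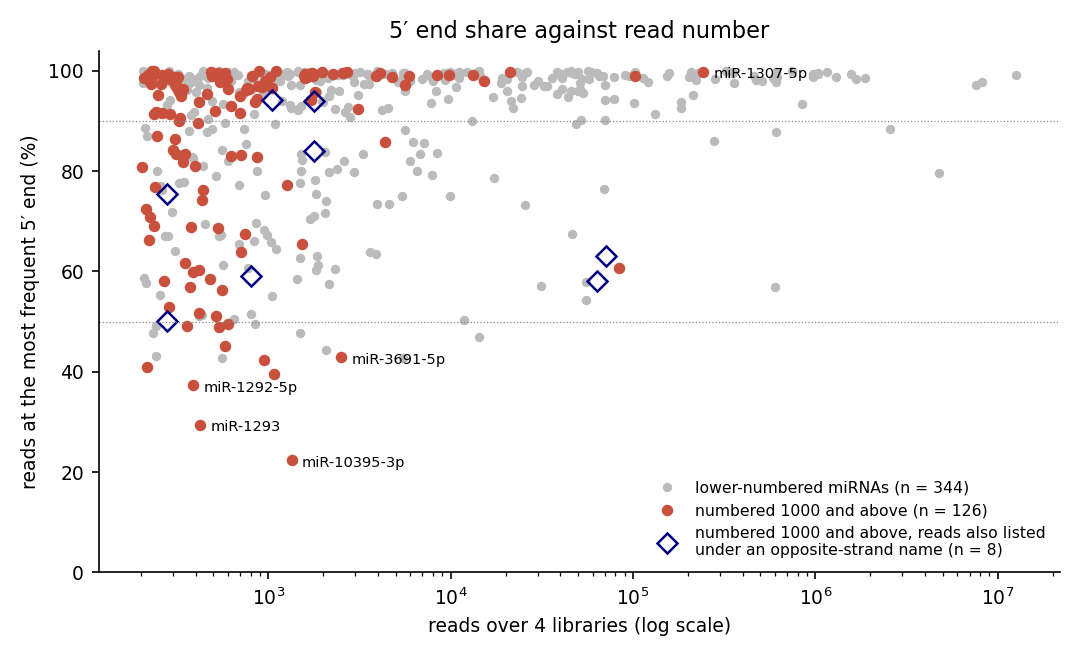
Share of reads at the most frequent 5p-end (%) against reads over the 4 libraries (log scale), with lower-numbered miRNAs in grey, miRNAs numbered 1000 and above in red and the 8 names whose reads are listed again under an opposite-strand name as open diamonds. Dotted lines mark 90% and 50%, and miR-10395-3p is lowest at 22.4%.

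At the other end were names whose reads began at many bases. miR-10395-3p had 22.4% of its 1342 reads (20.2 to 24.7) at its most frequent start, 3 nt downstream of the annotated one, and 17.8% at a start 2 nt upstream. By library its share was 27.1%, 21.9%, 16.4% and 24.3%, and the preferred base was the same in 3 of 4 libraries. miR-1293, in an intron of LIMA1, had 29.4% (25.3 to 33.9) at a start 2 nt upstream and 26.1% at one 3 nt upstream. miR-1292-5p had 37.3% (32.6 to 42.2), miR-10399-3p 39.6% (36.7 to 42.5) and miR-1243 40.9% (34.6 to 47.6). These 5 differ in how far their starts spread. When the base on either side of the preferred start was included, the share of miR-1243 became 100%, that of miR-1293 71.1% and that of miR-10395-3p only 36.5%. miR-3605-5p, with 42.3% at the annotated base and 34.9% at a base 2 nt upstream, had its 3p-end at a single base in 82.1% of reads. Its 3p-end was thus the sharper one, whereas in 107 of the 134 names the 5p-end was.

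For 115 of 134 names (85.8%, against 88.1% of the lower-numbered names) the preferred start was the annotated base. Without the opposite-strand names these were 87.3% and 89.8%. For the other names the seed of the most read isoform is not the annotated one, which pairs of sequences show. In each pair the annotated RefSeq sequence comes first and the reference sequence of the most read isoform second, with bases 2 to 8 in capitals.
miR-1247-3p annotated: cCCCGGGAacgucgagacuggagc
miR-1247-3p most read: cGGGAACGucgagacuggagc
miR-4653-5p annotated: uCUCUGAGcaaggcuuaacacc
miR-4653-5p most read: uCUGAGCAaggcuuaacacca
miR-3691-5p annotated: aGUGGAUGauggagacucgguac
miR-3691-5p most read: uAGUGGAUgauggagacucgguacc
miR-5094 annotated: aAUCAGUGaaugccuugaaccu
miR-5094 most read: aUCAGUGAaugccuugaaccuaac
miR-10399-3p annotated: cUCUCGGAcaagcuguagguc
miR-10399-3p most read: uCUCUCGGacaagcuguaggu
miR-1247-3p, from an exon of the noncoding transcript DIO3OS, had 98.9% of its 817 reads (97.9 to 99.4) at a base 3 nt downstream of the annotated start and 0.245% at the annotated base. miR-4653-5p, chosen as an example after its values were seen, had 99.5% of reads 2 nt downstream. miR-1304-5p had 99.8% of its 1967 reads 3 nt upstream of the annotated start and no read at it, and its annotated sequence occurs 5 times in the genome. In these 3 names the 5p-end was as sharp as in the most read names, only elsewhere. miR-3691-5p, in contrast, had 42.9% of its 2511 reads (40.9 to 44.8) 1 nt upstream, 32.5% 1 nt downstream and 13.3% at the annotated start. miR-5094 had 65.4% 1 nt downstream and 24.9% at the annotated base. miR-3184-5p (63.0% at 2 nt upstream) and miR-3074-3p (59.1% at 3 nt upstream) are opposite-strand names, for which the apparent 5p-end mirrors the 3p-end of miR-423-3p and miR-24-1-5p.

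Reads from both arms are the other sign of a hairpin cut on both sides. The 134 names belong to 119 hairpins, of which 35 carry a name without an arm suffix and 84 carry arm names. Both arms had at least 10 reads in 62 of the 84 (73.8%), against 154 of 189 lower-numbered hairpins (81.5%). Without the hairpins of opposite-strand names, 58 had both arms. In 60 of the 62 both arms were read in all 4 libraries. The 5p arm had more reads in 33 and the 3p arm in 29, and the median ratio of the more to the less read arm was 9.44, against 21 for the lower-numbered hairpins. A hairpin with few reads cannot show a large ratio when its lesser arm needs 10 reads. By class of hairpin reads the medians were 7.93 (38 hairpins) against 5.36 (12) under 1000 reads, and 19.0 (20) against 7.57 (45) from 1000 to under 10000, the reverse of the overall order. With 10000 reads and over they were 27.0 (4) against 42.5 (97). Both arms were themselves among the 134 names for 15 hairpins, and for these the read minimum had already fixed that both arms were read. In 6 of the 84 hairpins the lesser arm had no read, and in 17 of the 189 lower-numbered ones. An arm that is not annotated can have no reads in these counts, and how many arms this concerns was not examined.

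The most even arms were those of miR-3157, miR-3184, miR-3667 and miR-4796. miR-3157 had 350 reads from the 5p arm and 328 from the 3p arm. Its 5p arm took 53.1%, 63.4%, 28.8% and 53.3% of them by library, so only in mutant 1 did the 3p arm lead. miR-3667 had 360 and 478 reads, with 59.8%, 33.5%, 42.6% and 36.5% from the 5p arm, and here the empty vector library was the one that preferred the 5p arm. miR-4796 had 236 and 339 reads. The 70935 and 63113 reads of miR-3184 are those listed for the most part under miR-423 too. Among the 62 hairpins with at least 10 reads from each arm, the most uneven were those of miR-1910 (8387 reads from the 5p arm and 11 from the 3p arm), miR-1180 (34 and 21059), miR-2467 (5646 and 14) and miR-1266 (1710 and 15). The miR-1307 hairpin lay between them, with 74.3% of reads from the 5p arm and a range of 70.8% to 76.6% over the libraries.

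The fold of the hairpins was computed from the RefSeq sequences. The minimum free energy had a median of -48.8 kcal/mol per 100 nt over 94 hairpins of the late-numbered names and of -45.5 over 196 hairpins of lower-numbered names. In 47 folded hairpins with both arms read, the duplex of the most frequent isoforms left a 3p overhang of 1 to 3 nt at the end of the 3p arm in 32 (68.1%) and at the end of the 5p arm in 31 (66.0%). The lower-numbered hairpins had 114 of 132 (86.4%) and 109 of 132 (82.6%). Overhangs of this size are what cuts by DROSHA and DICER leave. The comparison was not split by read number, and some lesser arms had few reads, such as 11 in miR-3912 and in miR-1910. The mirtron hairpins miR-1224 and miR-1226 are among the 47. The 2 overhangs of miR-3157 were 3 nt and 3 nt, and those of miR-3200 were 3 and 2 nt. miR-3184, folded as its own strand, gave -2 and -2 nt, so its ends receded at the 3p side.

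The places in genes were compared next. Of the 126 names with a position in GENCODE, 86 (68.3%) lay in introns and 16 (12.7%) outside genes on their strand, much like the 70.1% and 13.5% of 341 lower-numbered names. Untranslated exons of coding genes held 16 (12.7%, against 1.76%), exons of noncoding transcripts 5 (3.97%, against 12.9%) and coding sequence 3 (2.38%, against 1.76%). A protein-coding host held 94 of them (74.6%), against 196 of 341 lower-numbered names (57.5%). The 3 coding names were miR-1287-5p in PYROXD2 and both arms of miR-1306 in DGCR8. None of the 126 overlapped a snoRNA or another small RNA gene. The names without a position, among them miR-10395-3p and miR-10399-3p, could not be checked for this. Of the 120 names searched for in the genome, 117 had a single exact match.

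The base composition differed too. The mature sequences of the 120 names in RefSeq had a median GC content of 55%, against 47.6% for 308 lower-numbered names, and 42 of them (35%) reached 60% GC, against 12.3%. The first base was U in 48.3% and G in 7 names, and U in 39.6% of the lower-numbered names. The most frequent read length was 21 to 24 nt for 113 names (94.2%), against 93.8%.

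A group of names had an end at an intron border. The most frequent read of 7 names (5.56% of 126) ended within 2 nt of the 3p end of an intron, and for 1 of 341 lower-numbered names (0.293%) this was the case. Their sequences, in the same form as above, all finish with the letters ag, as introns do.
miR-1226-3p: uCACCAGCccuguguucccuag
miR-1229-3p: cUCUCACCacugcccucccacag
miR-3620-3p: uCACCCUGcaucccgcacccag
miR-6798-3p: cUACCCCCcaucccccuguag
miR-5010-3p: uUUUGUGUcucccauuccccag
miR-4728-3p: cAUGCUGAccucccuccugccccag
miR-3605-3p: cCUCCGUGuuaccuguccucuag
The introns of the first 4 were 75 nt long in DHX30 (miR-1226-3p), 69 nt in MGAT4B (miR-1229-3p), 79 nt in ARF1 (miR-3620-3p) and 90 nt in RUVBL2 (miR-6798-3p). Those of the last 3 were longer, with 310 nt in ATP6V0A1, 708 nt in ERBB2 and 1685 nt in PHC2. The most frequent reads of miR-1224-5p and miR-4745-5p began within 2 nt of the start of introns of 85 nt in VWA5B2 and 73 nt in PTBP1.

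The end at the intron border was not always the sharper one. In 2 of the 7 names that end there the 3p-end share was above the 5p-end share, and the medians were 83.5% for the 3p-end and 86.4% for the 5p-end. Of these 7, 3 reached 90% at the 3p-end, against 8 of 117 names at no intron border, whose median 3p-end share was 67.0%. The 3p-end share was 95.9% for miR-1226-3p, 95.7% for miR-3620-3p and 99.7% for miR-6798-3p, while the median over the 134 names was 68.2%. In miR-3620-3p the 5p-end, which no splice site sets, reached only 51.7% (46.9 to 56.4). miR-1226-3p and miR-6798-3p had sharp 5p-ends as well, at 99.0% and 95.7%. miR-1229-3p had 76.1% at the 5p-end and 75.9% at the 3p-end, miR-3605-3p 83.0% and 69.5%, miR-5010-3p 95.0% and 83.5%, and miR-4728-3p 86.4% and 75.1%. miR-1224-5p and miR-4745-5p, which begin at the intron border, had 100% and 97.4% at the 5p-end and 33.8% and 26.3% at the 3p-end.

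**Figure D3:**
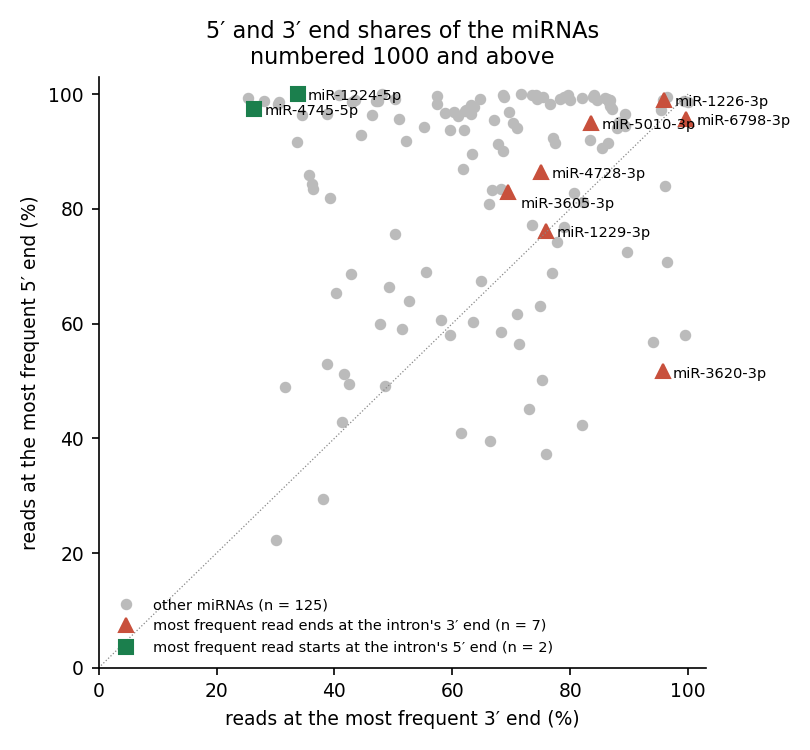
Share of reads at the most frequent 5p-end (%) against that at the most frequent 3p-end (%) for the 134 miRNAs. Triangles are the 7 names whose most frequent read ends at the 3p end of an intron, and squares the 2 names whose most frequent read starts at the 5p end of an intron. On the dotted line both shares are equal, and 107 of the 134 names lie above it.

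Names listed for their overlap with other abundant RNAs did not pass the read minimum, which 134 of all 967 late-numbered names passed. So few of the listed names were in the table that no difference from that share can be told. Of the 11 hairpins listed for sequence in common with tRNA, rRNA or snRNA (miR-1246, miR-1260a, miR-1260b, miR-1290, miR-3648, miR-3687, miR-4454, miR-6087, miR-7641, miR-7975 and miR-7977), 3 were in the table, with 1 read of miR-1246, 6 reads of miR-1260b and 9 reads of miR-4454. Of the 4 hairpins within snoRNAs, 3 were in the table, miR-1248 with 7 reads, miR-1291 with 13 and miR-3651 with 198, and none passed the minimum. Of the 9 listed mirtron hairpins (miR-1224 to miR-1229 and miR-1236 to miR-1238), all were in the table under 14 names, and 3 names passed the minimum: miR-1226-3p (3913 reads), miR-1224-5p (1105) and miR-1229-3p (436). The list of 5 hairpins set down as lying opposite or over another does not hold all the opposite-strand names above. It gave 5 names, miR-3065-3p (1777 reads), miR-3065-5p (1047), miR-3074-3p (805), miR-1306-5p (461) and miR-1306-3p (204). In GENCODE the hairpin of miR-1306 overlapped no other miRNA hairpin, and that of miR-3618 lay near it on the same strand. Reads were required by the authors to align unambiguously, and how many reads of repeated RNAs this removed was not tested.

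miR-1306 lies in the transcript of DGCR8, the RNA-binding partner of DROSHA. miR-1306-5p had 74, 137, 115 and 135 reads in the empty vector, wild-type, mutant 1 and mutant 2 libraries, and miR-1306-3p 62, 54, 35 and 53. The 5p arm took 54.4% of the reads of the hairpin in the empty vector library and 71.7%, 76.7% and 71.8% in the others. The 5p-end share was 95.4% for miR-1306-5p and 80.9% for miR-1306-3p.

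The last comparison set each library against the empty vector library. The question was whether the levels of these untransfected miRNAs moved with the plasmid mixture. Ratios were scaled to the reads of all untransfected miRNAs, and a name was counted when it differed by more than 2-fold. In such bulk libraries, fewer cells with a miRNA and less of it per cell cannot be told apart. In the wild-type library 1 of the 134 names was higher, where 1.46% of all 478 untransfected names with the read minimum were higher, and 2 were lower, where 0.837% were lower. In the mutant 2 library 1 was higher (1.26% of all) and 1 was lower (0.628% of all). In the mutant 1 library 1 was higher (0.837% of all) and 22 were lower (9.62% of all), which is 16.4% of the late-numbered and 6.98% of the lower-numbered names. The median log2 ratio of the 134 names was -0.18 for wild-type, -0.45 for mutant 1 and -0.01 for mutant 2, and that of all 478 names was -0.12, -0.34 and 0.06.

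The count in the mutant 1 library depends on the scaling. With miR-182-5p left out of the scaling total, a choice made after the data were seen, 6 of the 134 names were more than 2-fold lower and 1 higher in that library, with 10 lower and 11 higher among all names. With edgeR's TMM, which centres the names on no change, 5 of the 134 names were more than 2-fold lower and 1 was higher, with 9 lower and 12 higher among all names. Under the size factors of DESeq2, 5 were lower and 2 higher, with 8 and 14 among all names. Scaled to all miRNA reads, 24 were lower and 0 higher, with 51 lower and 3 higher among all names. For wild-type, the 1 higher and 2 lower names became 1 and 1 under TMM and DESeq2 and 0 and 2 with all miRNA reads, and 3 and 0 without miR-182-5p. Among all names, 7 were higher and 4 lower for wild-type. These became 8 and 3 under TMM and DESeq2, 3 and 6 with all miRNA reads, and 10 and 1 without miR-182-5p. Relative to all names, a difference that no scaling can change, the median log2 ratio of the 134 names differed by -0.11 in the mutant 1 library, with 78 of 134 names below the median of all. For wild-type the difference was -0.06 and for mutant 2 it was -0.07. GC content moved with the result. Among names with a sequence, 10 of 42 with at least 60% GC (23.8%) and 11 of 78 with less (14.1%) were more than 2-fold lower in the mutant 1 library, and among lower-numbered names 13.2% and 5.19%. Its part in the result was not tested.

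The ratios that follow are scaled to untransfected reads, and their intervals do not cover the choice of scaling. The names with the lowest ratios were not the most read ones. miR-3157-5p had 127, 102, 32 and 89 reads in the empty vector, wild-type, mutant 1 and mutant 2 libraries, and its ratio was 0.192 (exact binomial interval 0.126 to 0.285) in the mutant 1 library. Only its mutant 1 count stands apart. miR-3157-3p, from the same hairpin, had 112, 59, 79 and 78 reads and was lower in all 3 libraries, at ratios of 0.498, 0.537 and 0.617. miR-1243 had 67, 64, 24 and 60 reads and a ratio of 0.273 (0.164 to 0.441) in the mutant 1 library. miR-3614-5p had 153, 105, 72 and 183 reads and ratios of 0.649, 0.359 and 1.06.

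Among well-read names, miR-1307-5p had ratios of 0.958 (0.948 to 0.969) for wild-type, 0.484 (0.478 to 0.490) for mutant 1 and 0.857 (0.848 to 0.866) for mutant 2. miR-1180-3p, miR-1910-5p and miR-3615 had mutant 1 ratios of 0.453, 0.460 and 0.466 and ratios between 0.711 and 0.954 in the other libraries. With miR-182-5p left out of the scaling, the mutant 1 ratios of these 4 names were 0.606 (miR-1307-5p), 0.567, 0.576 and 0.583, and none was past 2-fold, nor with TMM (0.572 to 0.612). In contrast miR-7974 and miR-3200-3p had mutant 1 ratios of 1.08 and 1.10, or 1.36 and 1.38 without miR-182-5p. The lowest ratios of the wild-type library were those of miR-3667-5p (0.434, interval 0.311 to 0.601), miR-3157-3p and miR-4786-5p (0.569). Those of the mutant 2 library were miR-3942-5p (0.496, 0.351 to 0.695), miR-3155b (0.580) and miR-3157-3p.

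miR-1226-3p, the mirtron product of DHX30, had the highest ratio in 2 libraries. It had 504, 874, 1336 and 1199 reads, so the empty vector library was the lowest of the 4. Its ratio was 1.64 (1.47 to 1.83) for wild-type, 2.02 (1.82 to 2.24) for mutant 1 and 2.11 (1.90 to 2.34) for mutant 2. miR-4713-5p had 52, 113, 105 and 116 reads and ratios of 2.06 (1.47 to 2.91), 1.54 and 1.98, and was again lowest in the empty vector library. miR-1306-5p had a ratio of 1.75 and miR-1343-3p one of 1.73 for wild-type, miR-4521 had 1.56 for mutant 1 and miR-3667-3p had 1.90 for mutant 2. The 3 comparisons share the empty vector library.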

How the data were processed

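Small RNA was measured in 4 libraries of HCT116 cells, 1 per plasmid mixture. The authors trimmed adapters with cutadapt, filtered reads by length (18 to 26 nt) and quality, aligned them to hg38 with Bowtie2 and assigned unambiguous reads to miRBase loci. The counts were deposited without normalization, as reads per miRNA isoform with a 5p-end and a 3p-end offset of at most 5 nt. A second deposited file gives the transfected sequences and served only to name the miRNAs encoded by plasmids.

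Reads were added over isoforms. Negative 5p offsets lie upstream, and subtracting both offsets from the annotated length put all 10587 isoforms with a RefSeq length in the range of 18 to 26 nt. Opposite-strand names were found by comparing the genomic intervals of isoforms. Ratios were scaled to untransfected miRNA reads, with 3 counts as the floor. Shares have 95% Wilson intervals and ratios exact binomial intervals, which cover counting error only. No condition has a replicate, so no test was made. Positions come from GENCODE release 44, sequences from RefSeq (GRCh38.p14), found for 120 of 134 names, and folds from RNAfold 2.7.2. Python 3.11.15, pandas 2.3.3, scipy 1.17.1, edgeR 4.0.16 and DESeq2 1.42.0 were used. The formulas were tested on simulated data.

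Named were the 12 names with the most reads, the 5 lowest and 5 highest 5p-end shares, up to 8 with a start that is not annotated, the 4 most even and 4 most uneven hairpins, the 3 names on either side of the minimum, the 3 highest and lowest ratios of each library, and the members of the lists. Names at intron borders and others singled out were added after their values were seen. The names and lists were chosen with earlier results of these data known. Alternatives were other read and arm minimums, other measures of the 5p-end, single libraries or 1 library left out, other scalings and a pseudocount of 1. Leaving out opposite-strand names, and scaling without miR-182-5p, were added after the data were seen.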

Additional observations from a re-analysis of the deposited data

How the results depend on the processing

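Of 72 alternatives to 10 results, 50 left the value within its margin (1.5 times for a count, the 95% interval for a share or median) and 22 moved it. The minimum moved most counts: 308 names passed 50 reads and 41 passed 1000. With 1000 reads, the median 5p-end share was 98.8% for the late-numbered and 97.8% for the lower-numbered names, the reverse of their order at 200 reads. Then 31 late-numbered names reached 90% and 3 were under 50%. Of the 41 names, 0, 7 and 1 were more than 2-fold from the empty vector library in the wild-type, mutant 1 and mutant 2 libraries. Of the 248 lower-numbered names with 1000 reads, 2, 19 and 2 were. With both neighbouring bases counted, the medians were 99.2% and 99.8% and 1 name was under 50%. At the annotated base, 25 names were under 50%. With 50 reads required of an arm, both arms were read in 34 hairpins. The share of miRNA reads in the empty vector library was 1.35% of untransfected reads and 1.06% without opposite-strand names, against 1.06%, 0.828% and 1.21% in the wild-type, mutant 1 and mutant 2 libraries. In the mutant 1 library 23 names were more than 2-fold away in either direction, but 6 when TMM factors were used, 7 when DESeq2 factors were and 7 when miR-182-5p was left out of the scaling. The counts among all names are given with the ratios above. With 1 library left out, 110 to 115 names passed the minimum, the median 5p-end share was 93.7% to 94.5%, and 9 to 12 names were under 50%. No paired analysis was possible because each condition has 1 library. Depth limits most the names near 200 reads, and no interval covers differences between transfections.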
